A study of Mus musculus with 5 samples.

Results

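The genes described here serve antigen presentation by major histocompatibility complex (MHC) class II in mouse liver. The list holds 10 genes: the chain genes H2-Aa, H2-Ab1, H2-Eb1 and H2-Eb2, the invariant chain Cd74, the transactivator Ciita, and the peptide editors H2-DMa, H2-DMb2, H2-Oa and H2-Ob. Each was represented by the probe set with the highest mean over the arrays, among probe sets that carry 1 gene symbol. On that rule 9 of the 10 were measured, out of 18820 genes. The probe set of H2-DMb2 is annotated for H2-DMb1 as well, so its signal is given below for the pair and is not counted.

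Livers came from adult C57Bl/6 mice. Control mice received rat IgG, and treated mice received M279, an antibody against CSF1R, the receptor for the macrophage growth factors CSF1 and IL-34. Both agents were injected into the peritoneal cavity at 300 µg, 3 times a week for 6 weeks, and 3 control and 2 treated liver samples were each run on 1 array. Hepatocyte markers had a summed intensity of 51719 to 53291 in the controls and 50305 to 51861 in the treated samples. The labels do not say how many animals these came from, and the spread behind each p-value is that between these samples, which may be technical.

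Class II molecules are heterodimers of an alpha and a beta chain that show peptides from the endosomal pathway to CD4+ T cells. The invariant chain escorts them to endosomes and fills the groove until proteases trim it, after which H2-DM exchanges the remaining fragment for antigenic peptide and H2-O restrains H2-DM. Dendritic cells, B cells and macrophages carry most class II, and in liver Kupffer cells, the resident macrophages, are among them. Ciita is the coactivator that switches the class II genes on. It binds no DNA itself and is recruited by factors seated on a shared X and Y box module in front of these genes.

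Signal from the class II chain genes H2-Ab1, H2-Eb1 and H2-Aa and from Cd74 was lower in treated than in control liver, by 1.69-fold to 1.98-fold, and both treated arrays lay under all 3 controls for each of these 4 genes. H2-DMa differed by less and its groups overlapped, as did those of Ciita, H2-Eb2, H2-Oa and H2-Ob. The 4 with groups apart make up 4 of 9 measured genes, where 19.5% of all 18820 genes lay under all controls on both treated arrays and 25.1% lay over them. After adjustment over all 35556 probe sets, 0 of the 9 had a limma p under 0.05 (two-sided), and 0% of all probe sets did. At an unadjusted p under 0.05, 4 of the 9 were lower and 0 higher in limma, where 8.40% of all genes were lower and 9.91% higher. Because whole liver was measured, fewer class II-bearing cells and less RNA per such cell cannot be told apart.

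H2-Ab1 encodes the beta chain of I-A, the class II molecule of C57Bl/6 mice. Its log2 intensity was 8.23, 8.83 and 8.19 in control replicates 1 to 3, and 7.28 and 7.59 in treated replicates 1 and 2. The lowest control stood 0.60 above the highest treated array, close to the range of 0.64 among the controls themselves. The difference in means was -0.98 ± 0.23 (SE, 3 control and 2 treated arrays, 95% interval -1.54 to -0.43, limma adjusted p = 0.192).

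H2-Aa encodes the alpha partner of the same molecule. It read 8.59, 9.17 and 8.42 in the controls and 7.63 and 8.32 in the treated livers. The groups were apart by only 0.10, since treated replicate 2 came close to control replicate 3. The difference was -0.75 ± 0.29 (limma adjusted p = 0.258), and it was -0.41 without treated replicate 1.

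H2-Eb1 encodes the beta chain of I-E. Its values were 7.996, 8.85 and 8.09 in the controls and 7.07 and 7.67 in the treated livers, which put 0.33 between the groups. The difference was -0.94 ± 0.31 (limma adjusted p = 0.225). C57Bl/6 mice lack a working I-E alpha chain, and the alpha gene H2-Ea is annotated in RefSeq as a transcribed pseudogene. Its probe set read 3.28, 2.92 and 2.78 in the controls and 3.10 and 3.03 in the treated livers, within the control range.

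Cd74 encodes the invariant chain, which also serves as a receptor component for the cytokine MIF. It read 8.38, 9.15 and 8.46 in the controls and 7.77 and 7.93 in the treated livers. The SD of the treated arrays was 0.12 (n = 2), while control replicate 2 stood well above the other 2 controls. The difference was -0.81 ± 0.25 (limma adjusted p = 0.215).

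**Figure D1:**
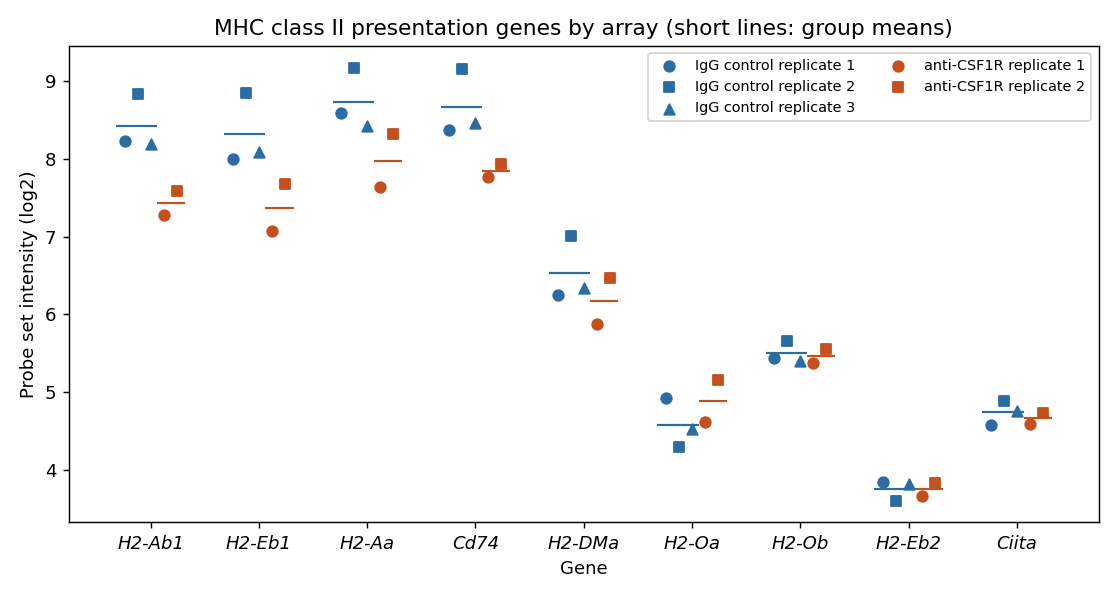
Log2 probe set intensity (vertical axis) of the 9 measured class II presentation genes (horizontal axis) on each array, with IgG controls in blue, anti-CSF1R in orange and short lines for group means. For H2-Ab1, H2-Eb1, H2-Aa and Cd74 both orange points lie under all blue points; for the other 5 genes the groups overlap. Heights of different genes cannot be compared, since each probe set has its own response.

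The H2-DM and H2-O genes, whose products edit the peptide, were less separated. H2-DMa, the alpha chain of H2-DM, read 6.25, 7.01 and 6.34 in the controls and 5.87 and 6.46 in the treated livers. Treated replicate 1 was the lowest array and treated replicate 2 lay inside the control range. The difference was -0.36 ± 0.28 (95% interval -1.06 to 0.33, limma adjusted p = 0.484). It was -0.66 without treated replicate 2, -0.07 without treated replicate 1 and -0.12 without control replicate 2.

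The probe set shared by H2-DMb2 and H2-DMb1, near copies that encode the beta chain of H2-DM, read 5.58, 5.85 and 5.75 in the controls and 5.50 and 5.96 in the treated livers. The treated arrays were the lowest and the highest of the 5, and the difference in means was 0.00 ± 0.17 (95% interval -0.42 to 0.42). Signal from these 2 genes cannot be separated on this probe set.

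H2-Oa and H2-Ob encode the chains of H2-O, the inhibitor of H2-DM found mainly in B cells. H2-Oa read 4.93, 4.29 and 4.52 in the controls and 4.61 and 5.15 in the treated livers. It was the one gene of the 9 with a higher treated mean, at 0.30 ± 0.24 (95% interval -0.29 to 0.89), and the value was 0.57 without treated replicate 1 and 0.03 without treated replicate 2. H2-Ob read 5.44, 5.66 and 5.40 in the controls against 5.38 and 5.55 in the treated livers, a difference of -0.03 ± 0.13 whose sign turned when arrays were quantile normalized (0.06), loess normalized (0.02) or centred on their medians (0.003).

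H2-Eb2, a second I-E type beta chain gene beside H2-Eb1, read 3.84, 3.61 and 3.82 in the controls and 3.66 and 3.84 in the treated livers, a difference of -0.01 ± 0.13 that became 0.03 with arrays centred on their medians. Ciita read 4.58, 4.89 and 4.75 in the controls and 4.59 and 4.74 in the treated livers. Both of its treated values lay between control replicates 1 and 3, and its difference was -0.07 ± 0.13 (95% interval -0.40 to 0.25, limma adjusted p = 0.758). The table gives no detection calls, so it is not known whether the probe sets of Ciita, H2-Eb2 and H2-Oa were above background. Whether the difference of Ciita differs from that of the chain genes was not tested.

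**Figure D2:**
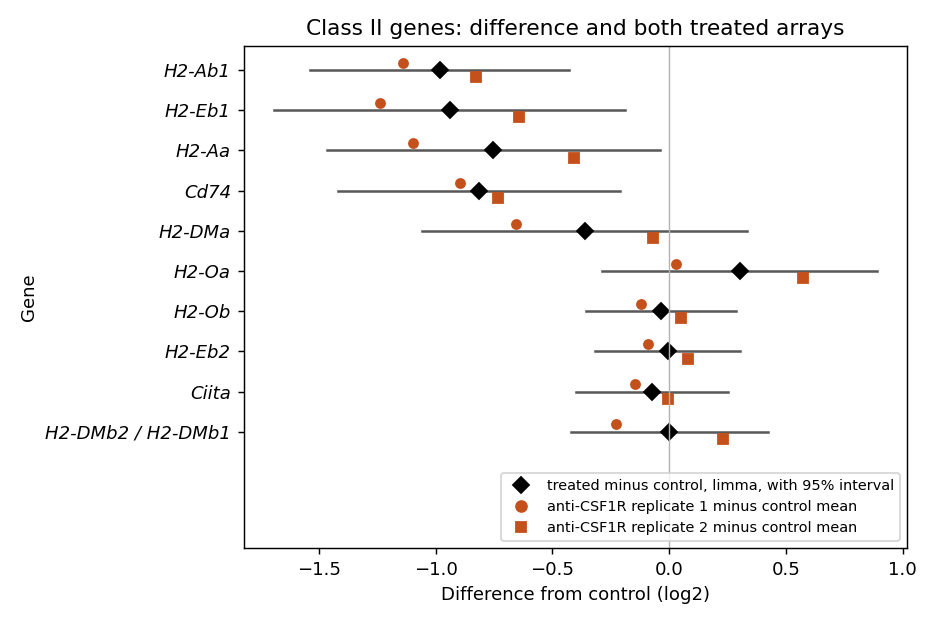
Treated minus control difference on the log2 scale (horizontal axis) for the 9 genes and the shared H2-DMb2 and H2-DMb1 probe set (vertical axis), with limma's 95% interval (line) and each treated array against the control mean (orange). The intervals of H2-Ab1, H2-Eb1, H2-Aa and Cd74 lie under 0 and the other 6 include it.

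Treated replicate 1 carried the lower values. It was the lowest of the 5 arrays for 6 of the 9 genes, and control replicate 2 was the highest for 7 of them. Over the 9 genes the median distance from the control mean was -0.66 for the first treated replicate and -0.07 for the second, against -0.16, 0.41 and -0.19 on control replicates 1 to 3. For both treated replicates this median is the value of H2-DMa. On treated replicate 2 the 4 genes with groups apart still stood under the control mean, at -0.83 for H2-Ab1, -0.73 for Cd74, -0.64 for H2-Eb1 and -0.41 for H2-Aa. On treated replicate 1 the same genes stood at -1.14, -0.90, -1.24 and -1.10.

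The median difference over the 9 genes was -0.36, beside 0.04 over all 18820 genes. This median is the value of H2-DMa, which falls between the 4 genes with groups apart and the remaining genes. Differences varied with signal: among the 4705 genes of highest mean intensity, which include the 4 genes with groups apart, the median was -0.06 and 26.8% of genes lay under all controls on both treated arrays. The genes' median was -0.66 without treated replicate 2, -0.07 without treated replicate 1 and -0.12 without control replicate 2. These, too, are the values of H2-DMa given above, so they do not describe the 4 genes with groups apart. For single genes, without control replicate 2, H2-Ab1 was at -0.78, H2-Eb1 at -0.67, Cd74 at -0.57 and H2-Aa at -0.53. The count of genes with both treated arrays under all remaining controls was 5 without control replicate 1 and 4 without control replicate 2 or 3. Leaving out an array can only keep or raise this count, so it is no check on it.

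**Figure D3:**
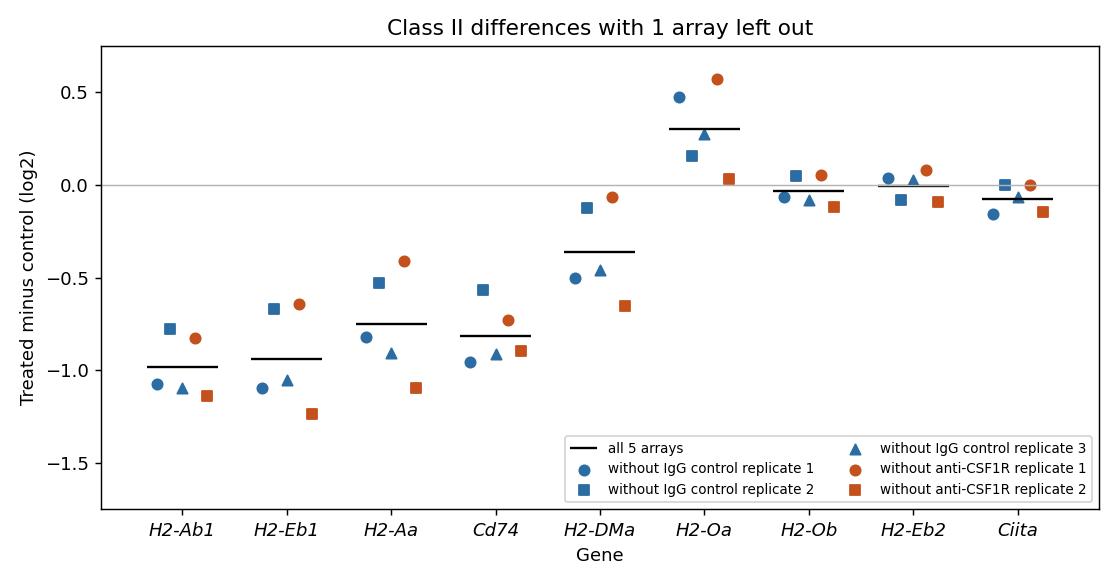
Treated minus control difference on the log2 scale (vertical axis) of each gene (horizontal axis) with all 5 arrays (black line) and with 1 array left out (points). H2-Ab1 stays between -1.14 and -0.78 and Cd74 between -0.96 and -0.57, while H2-DMa ranges from -0.66 to -0.07 and the points of Ciita, H2-Eb2 and H2-Ob fall on both sides of 0.

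Letters of the X and Y boxes were looked for in the promoter windows of these genes, and were found as a pair in 5 genes, some with groups apart and some without. RefSeq windows (GRCm38.p6) of 300 bases, from 250 before to 50 after the start, were at hand for 7 of the 10 genes; H2-Ab1, Ciita and Cd74 have no window here. The letters searched were GCAAC, the core of the X box bound by the RFX complex, and GATTGG, the core of the Y box bound by NF-Y. Both were chosen after reading the windows of these genes. On both strands together, GCAAC occurred in 35.2% and GATTGG in 16.1% of 32851 windows. GCAAC followed on the gene's strand by GATTGG, 25 to 45 bases later counted from start to start, occurred in 55 windows (0.167%), of which 5 belong to H2-Aa, H2-Eb1, H2-Eb2, H2-Oa and H2-Ob. The stretches are written 5′ to 3′ on the gene's strand, and capitals mark the cores, which do not overlap.
H2-Aa, chr17:34287852-34287929, minus strand: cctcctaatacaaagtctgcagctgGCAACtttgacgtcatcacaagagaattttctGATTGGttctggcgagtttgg
H2-Eb1, chr17:34305751-34305827, plus strand: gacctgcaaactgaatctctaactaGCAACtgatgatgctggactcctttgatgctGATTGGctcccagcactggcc
H2-Eb2, chr17:34325518-34325594, plus strand: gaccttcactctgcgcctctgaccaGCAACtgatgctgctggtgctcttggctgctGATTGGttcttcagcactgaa
H2-Oa, chr17:34092278-34092355, plus strand: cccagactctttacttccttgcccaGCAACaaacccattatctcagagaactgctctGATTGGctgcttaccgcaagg
H2-Ob, chr17:34238793-34238867, plus strand: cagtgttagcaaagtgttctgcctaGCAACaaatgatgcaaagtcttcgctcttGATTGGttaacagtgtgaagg
H2-DMb2, chr17:34145113-34145178, plus strand: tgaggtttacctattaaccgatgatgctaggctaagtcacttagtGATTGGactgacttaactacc

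The spacing from GCAAC to GATTGG was 32 bases in H2-Aa and H2-Oa, 31 in H2-Eb1 and H2-Eb2, and 29 in H2-Ob. H2-Eb1 and H2-Eb2 therefore have the same spacing. Their log2 differences in treated liver were -0.94 and -0.01. The probe set of H2-Eb2 read only 3.61 to 3.84 and may not be above background, so the 2 differences cannot be set against each other. The window of H2-DMb2 holds GATTGG and no GCAAC, and neither of the 2 windows of H2-DMa holds the pair. These matches are letters only and say nothing of binding in these livers.

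The factors that sit on this module gave values that depended on how the arrays were scaled. Of 6 measured genes among the RFX subunits, NF-Y subunits and Creb1, 5 were lower in the table as deposited, with a median difference of -0.15, and 5 had both treated arrays under all controls. That count was 1 with quantile normalization (median -0.02), 2 with cyclic loess (median -0.03) and 3 with arrays centred on their medians (median -0.11). Their summed intensity as deposited was 1095 to 1166 in the controls and 1019 to 1056 in the treated livers, so the groups did not overlap. Among the 4705 genes next below the top 4705 in mean intensity, from a log2 mean of 5.59 to one of 7.75, where 5 of the 6 lie, 40.3% of genes had treated values under all controls. Nfya, the NF-Y subunit that contacts the CCAAT sequence, read 7.31, 7.54 and 7.52 in the controls and 7.19 and 6.94 in the treated livers, a difference of -0.39 ± 0.14 (limma adjusted p = 0.235). Rfx5, the large RFX subunit, differed by -0.17 ± 0.12, from 6.54, 6.50 and 6.64 to 6.49 and 6.29. At an unadjusted p under 0.05, 1 of the 6 was lower and 0 higher, where 8.40% and 9.91% of all genes were. After adjustment 0 passed.

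Regulators of Ciita had no common direction. Of 13 measured genes of interferon gamma signalling and Ciita control, 8 were lower and 5 higher, with a median of -0.02, or 0.06 with quantile normalization or cyclic loess. Ifngr1, a chain of the interferon gamma receptor, read 8.56, 8.77 and 8.61 in the controls and 8.28 and 8.30 in the treated livers (-0.36 ± 0.11, limma adjusted p = 0.221). Ifng, the cytokine that induces Ciita, was at 4.06, 4.17 and 3.97 in the controls and 4.51 and 4.40 in the treated livers (0.39 ± 0.11, limma adjusted p = 0.211), and the lymphoid and dendritic cell factor Irf4 was at 4.02, 3.95 and 4.19 against 4.51 and 4.40 (0.40 ± 0.12). These are low signals. Ifng and Irf4 lie among the 4705 genes next above the lowest 4705 in mean intensity, where the median difference was 0.12. Irf1, an interferon-induced activator of Ciita, differed by 0.23 ± 0.12 on a probe set that read 7.47 to 7.88. On another, which read only 4.39 to 4.66 and may not be above background, it differed by -0.09 ± 0.12. The myeloid factor Irf8 differed by -0.17 ± 0.14. At an unadjusted p under 0.05, 1 of the 13 was lower and 2 higher, where 8.40% and 9.91% of all genes were. After adjustment 0 passed.

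Among proteases and other enzymes of the endosome, the largest difference was that of Ctss. This gene encodes cathepsin S, which trims the invariant chain in dendritic cells and B cells. It read 7.31, 7.40 and 7.26 in the controls and 6.50 and 6.94 in the treated livers, a difference of -0.60 ± 0.16 (limma adjusted p = 0.195), with the groups 0.32 apart. Ifi30, the thiol reductase that unfolds antigens, differed by 0.15 ± 0.19, and the list's median over 8 measured genes was -0.03, with 4 lower and 4 higher, and 0.01 with arrays centred on their medians. At an unadjusted p under 0.05, 1 of the 8 was lower and 0 higher, where 8.40% and 9.91% of all genes were. After adjustment 0 passed.

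Marchf1, the ubiquitin ligase that sends class II from the cell surface to lysosomes, read 5.18, 5.23 and 5.32 in the controls and 4.79 and 5.08 in the treated livers (-0.30 ± 0.13, limma adjusted p = 0.281). Cd83, which opposes Marchf1, differed by 0.03 ± 0.22 with overlapping groups. Of the 5 turnover and trafficking genes 3 were lower and 2 higher, and 0 had an unadjusted p under 0.05. At that level, 8.40% of all genes were lower and 9.91% higher.

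Costimulatory genes, which antigen-presenting cells use beside class II, had a median difference of -0.38 over 7 genes, with 5 lower. Cd86 read 5.51, 5.72 and 5.39 in the controls and 4.86 and 5.30 in the treated livers (-0.46 ± 0.18, limma adjusted p = 0.253), Cd80 differed by -0.45 ± 0.14 and Icosl by -0.38 ± 0.14. A second probe set of Cd80 differed by only -0.02 ± 0.15. These 3 genes were the 3 with both treated arrays under all controls and with an unadjusted p under 0.05, 0 were higher at that level, and 0 passed after adjustment. Of all genes, 19.5% lay under all controls in this way and 8.40% were lower at that level. Without control replicate 2 the list's median was 0.003. On that array Cd40, named after its values were seen, reached 6.87, against 4.997 and 4.82 on the other controls and 4.999 and 4.82 on the treated arrays.

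Markers of the cells that carry class II were read beside these values, and their part in the class II differences was not tested. The macrophage markers had a median of -0.27, with 10 of 11 lower and 4 with both treated arrays under all controls. Of all genes 19.5% lay under all controls in this way, and 26.8% of the 4705 genes of highest mean intensity. The markers' summed intensity was 3853 to 4562 in the controls and 3019 to 4214 in the treated livers. Csf1r itself read 8.49, 8.68 and 8.61 in the controls and 7.93 and 8.12 in the treated livers (-0.56 ± 0.12), Mpeg1 differed by -0.57 ± 0.16 and Fcgr1 by -0.58 ± 0.23. The macrophage median was -0.55 without treated replicate 2, -0.16 without control replicate 2 and -0.02 without treated replicate 1. The class II and macrophage medians were both lower on treated replicate 1 than on treated replicate 2. Kupffer cell, monocyte and T cell markers had that order as well, while B cell and cholangiocyte markers had the reverse. An order of 2 arrays is easily shared, and what it reflects was not tested.

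Kupffer cell markers had a median of -0.18, with 5 of 8 lower and a summed intensity of 2709 to 3125 in the controls and 2307 to 3063 in the treated livers. Clec4f differed by -0.25 ± 0.14, Timd4 by -0.25 ± 0.22, Adgre1 by -0.48 ± 0.18 and Cd163 by -0.80 ± 0.16, while Marco differed by 1.34 ± 0.17. The list's median was -0.38 without treated replicate 2, 0.08 without treated replicate 1 and -0.08 without control replicate 2. Monocyte markers had a median of -0.05 over 8 genes (0.03 with quantile normalization and 0.01 with cyclic loess), with 5 lower and a summed intensity of 423 to 655 in the controls and 424 to 528 in the treated livers. Cx3cr1 differed by -0.57 ± 0.14, Itgal by -0.58 ± 0.18 and Ccr2 by 0.09 ± 0.10.

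Dendritic cell markers had a median of -0.10, with 6 of 11 lower. Both treated arrays lay under all controls for 2 markers (19.5% of all genes) and over them for 2 (25.1% of all genes). Their summed intensity was 465 to 557 in the controls and 423 to 465 in the treated livers. The largest part of it came from Naaa, at 175, 227 and 186 in the controls and 134 and 172 in the treated livers. Clec9a, a receptor of cross-presenting dendritic cells, read 5.99, 6.50 and 5.96 in the controls and 5.62 and 5.82 in the treated livers (-0.42 ± 0.20), and Naaa, an acid amidase, differed by -0.36 ± 0.17. Flt3 (0.18 ± 0.15), Itgax (-0.10 ± 0.12) and Zbtb46 (0.23 ± 0.10), the more general dendritic cell genes, gave no shared direction. These are low signals that may not be above background. The median difference was 0.18 among the 4705 genes of lowest mean intensity, which include Flt3. It was 0.12 among the next 4705, which include Itgax and Zbtb46. The list's median was 0.01 when control replicate 2, treated replicate 1 or treated replicate 2 was left out.

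B cell markers had a median of 0.06 (-0.03 with cyclic loess), with 4 of 11 lower and a summed intensity of 356 to 420 in the controls and 334 to 372 in the treated livers. The median was 0.21 without treated replicate 2 and 0.02 without control replicate 1 or 3. Bank1, a scaffold of B cell receptor signalling, read 6.36, 6.72 and 6.24 in the controls and 5.44 and 5.51 in the treated livers (-0.96 ± 0.16, limma adjusted p = 0.187), and was the only B cell marker with both treated arrays under all controls. Over all genes that share was 19.5%. Ms4a1, which encodes CD20, differed by -0.15 ± 0.23, Pax5 by 0.39 ± 0.12 and Blk by 0.22 ± 0.18. Most B cell markers, these 3 included, are low signals with a log2 mean between 3.81 and 5.59. The 4705 genes in that range had a median difference of 0.12, so the list's median of 0.06 is not above it.

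**Figure D4:**
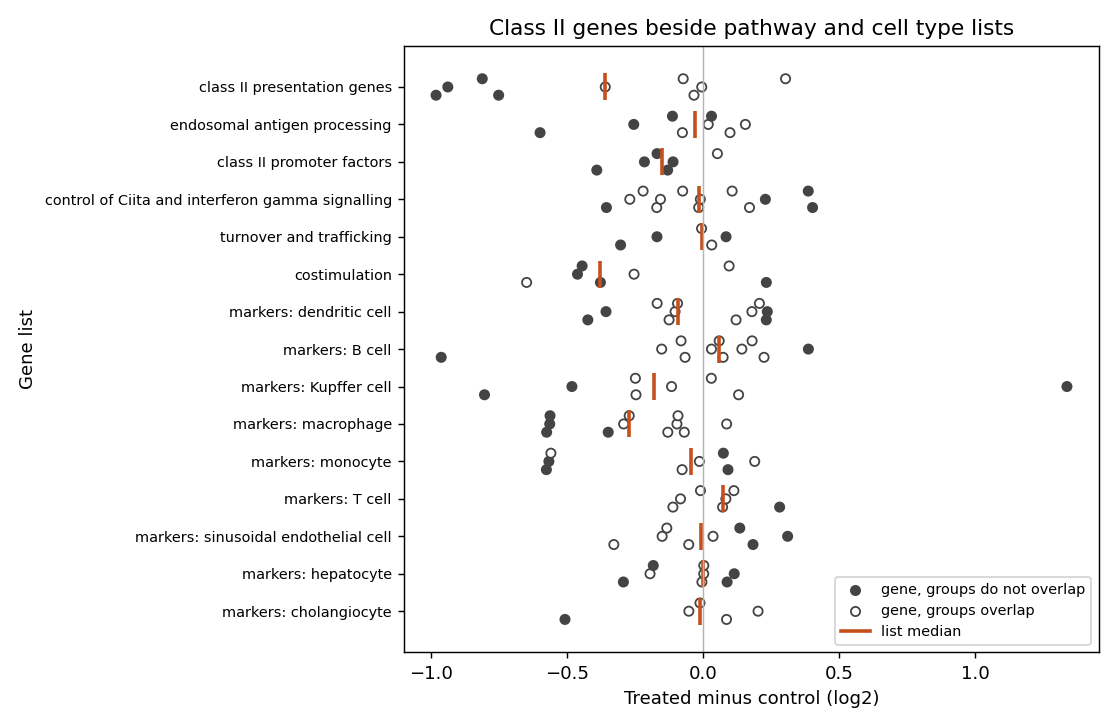
Treated minus control difference on the log2 scale (horizontal axis) of each measured gene, by gene list (vertical axis), with filled points where the groups do not overlap and an orange bar at the list's median. The class II list has 4 filled points between -0.98 and -0.75 and a median of -0.36, which is the value of H2-DMa. Other medians are -0.38 for costimulation, -0.27 for macrophage markers and 0.06 for B cell markers.

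The genes whose pattern over the 5 arrays was most like the mean of the 9 class II genes were Timm21, Tmem81, Naaa, Ccdc134 and Ncf1. Likeness was the root mean square distance between log2 values centred on each gene's own mean, and it was 0.0402 to 0.0528 for these 5. Ncf1, a subunit of the phagocyte NADPH oxidase, read 5.69, 5.94 and 5.58 in the controls and 5.18 and 5.44 in the treated livers. Timm21, a subunit of the mitochondrial import machinery, read 7.89, 8.24 and 7.83 against 7.48 and 7.85. With 5 arrays and 18820 genes, such matches are a description of these arrays only.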

How the data were processed

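The authors deposited 1 table of probe set intensity on a linear scale, with 35556 probe sets and 5 arrays. RNA was prepared with Trizol, amplified by the Nugen Pico SL method and biotin labelled, per the labels' protocols, and amplification can alter ratios of dim to bright transcripts. Per the submitters' processing notes, Affymetrix Expression Console 1.1 was used; its background correction and normalization are not stated. Array medians lay between 32.5 and 33.9, and the number of arrays limits precision.

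Intensities were taken to log2 with no pseudocount or further normalization. Probe sets were named from the platform annotation, which can be old: 21218 had 1 symbol, 1881 several, and 12457 are unnamed here. Symbols were updated through RefSeq gene IDs (GRCm38.p6), and 33 had no entry. Groups were compared with limma 3.58.1 (R 4.3.3; lmFit and eBayes, 3 residual degrees of freedom), two-sided, and p was adjusted by Benjamini-Hochberg over all 35556 probe sets, with a threshold of 0.05. The steps were tested on simulated data. In the test of the fit, with normal noise, recovery was required only for changes larger than the class II differences. Lists are described by counts and medians, with no test of their own. "Under all controls" means that both treated arrays lay under the lowest control.

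The genes and lists were chosen with earlier results of these data known. All class II genes are named. From pathway lists, genes with an unadjusted p under 0.05 and some genes set by name are given, and from marker lists up to 3 of smallest p and some set by name. Alternatives were 3 other normalizations, a pseudocount of 16, a filter at the 25th percentile of level, other variance models, the replicate number as a block, 1 probe set per gene, the mean of a gene's probe sets, and leaving out each array. Plots used matplotlib 3.10.9 (Python 3.11.15).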

Additional observations from a re-analysis of the deposited data

How the results depend on the processing

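H2-Ab1, H2-Eb1, H2-Aa, Cd74 and H2-DMa stayed lower, and H2-Oa higher, under all 14 alternatives run for single genes, with 0 of the 9 genes at an adjusted p under 0.05 in limma in any of them. With 1 probe set per gene tested, 5 probe sets were higher and 9 lower, none of them a class II gene, and H2-Ab1 had its smallest adjusted p (0.0785, in a range up to 0.398). H2-Eb2 turned to 0.0316 with arrays centred on their medians, 0.0254 with the replicate block, and 0.0371, 0.0254 and 0.0791 without control replicate 1, control replicate 3 or treated replicate 1. H2-Ob turned to 0.0619 with quantile normalization, 0.0165 with cyclic loess, 0.00299 with centring, and 0.046 and 0.052 without control replicate 2 or treated replicate 1. Ciita turned to 0.00015 without control replicate 2. Leaving out 1 array gave -1.14 to -0.78 for H2-Ab1, -1.24 to -0.64 for H2-Eb1, -1.10 to -0.41 for H2-Aa, -0.96 to -0.57 for Cd74, -0.0916 to 0.0791 for H2-Eb2, -0.122 to 0.052 for H2-Ob and -0.156 to 0.00015 for Ciita, with the lone treated array then assumed to vary like the controls. Each of the 9 genes has 1 probe set, so averaging probe sets changed none of them. The cause of these moves was not tested.

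The labels' replicate numbers did not mark a known pairing. Deviations of same-numbered arrays correlated across probe sets at 0.03 for replicate 1 and 0.03 for replicate 2. With the replicate block, control replicate 3 has no partner, and H2-Ab1 was at -1.10 (limma adjusted p = 0.285). The largest move of the median of all genes under another scaling was -0.0437, with cyclic loess.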

Other observations

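CD4+ T cells read class II, and their genes had no common direction: T cell markers had a median difference of 0.07 (-0.01 with cyclic loess) over 7 measured genes, with 3 lower, 4 higher and 0 with an unadjusted p under 0.05 in limma. At that level, 8.40% of all genes were lower and 9.91% higher. Cd4, the coreceptor that binds class II, read 5.92, 5.59 and 5.55 in the controls and 5.68 and 5.86 in the treated livers (0.08 ± 0.15). Cd3d and Cd8a, both low signals, differed by 0.28 ± 0.13 and 0.11 ± 0.12. The median difference was 0.18 among the 4705 genes of lowest mean intensity, which include Cd3d. It was 0.12 among the next 4705, which include Cd8a.

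Sinusoidal endothelial cells can also present antigen. Their markers had a median of -0.01 over 8 genes (0.06 with quantile normalization, 0.08 with cyclic loess and 0.03 with arrays centred on their medians), with 4 lower and 4 higher. Clec4g, a lectin of these cells, read 10.70, 10.77 and 10.70 in the controls and 11.02 and 11.04 in the treated livers (0.31 ± 0.10). Its second probe set differed by -0.16 ± 0.17, but read only 3.29 to 3.78 and may not be above background. Lyve1 differed by -0.33 ± 0.18. Hepatocyte markers had a median of -0.002 over 8 genes, 2 of them with both treated arrays under all controls (19.5% of all genes). With cyclic loess the median was -0.156 and the count 7, with quantile normalization they were -0.05 and 3, and with arrays centred on their medians 0.04 and 1. Cholangiocyte markers had a median of -0.01 over 5 genes, or 0.02 with quantile normalization and 0.03 with centring. Sox9 was at -0.51 ± 0.15, Krt7 at -0.05 ± 0.29 and Cftr at -0.01 ± 0.14, while Krt19 was at 0.20 ± 0.26 and Epcam at 0.08 ± 0.15. The cholangiocyte median was -0.23 without treated replicate 1 and 0.12 without treated replicate 2.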
